A study of Drosophila melanogaster with 6 samples.

Results

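Aminoacyl-tRNA synthetases, the enzymes that load each tRNA with its amino acid, were followed in Drosophila S2 cells after RNA interference. Members were chosen by gene symbol, with earlier results of these data known. The symbol is a three-letter amino acid code and RS, with -m added for the mitochondrial enzymes. Every probe set that the platform annotation pairs with a single such gene was taken. This gave 32 probe sets for 30 genes, out of 11982 genes with a probe set of their own. Of the 30 genes, 14 carried the -m suffix and 16 did not. Members without the suffix are called cytosolic below by name alone, and some may also serve mitochondria. Under the name rule the RefSeq gene table holds no ThrRS-m, LysRS-m, GlyRS-m or HisRS-m. TrpRS had 3 probe sets and every other gene 1. AspRS, MetRS and AlaRS-m also match the name rule in the RefSeq gene table but are not analysed here.

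The study treated S2 cells, an embryonic line with blood cell features, with double-stranded RNA (dsRNA) and took RNA 5 days later. The dsRNA matched Spotted-dick (now pita, a zinc-finger DNA-binding protein) in 3 samples, and GFP, a jellyfish protein that flies lack, in 3 control samples. Each sample was hybridised to an Affymetrix Drosophila_2 array. Both groups received dsRNA. The labels name a single dsRNA for Spotted-dick and no rescue, so the loss of the gene and other effects of that dsRNA cannot be told apart. Nothing in the labels says that replicates came from separate cultures, so p-values measure only the spread between these samples.

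A synthetase joins its amino acid to ATP and then passes it to the tRNA that carries the matching anticodon. The charged tRNA is what the ribosome reads, so every protein made in the cytosol or in mitochondria depends on this family. The enzymes fall into class I, with a Rossmann-fold catalytic domain, and class II, built around an antiparallel sheet. In animals several cytosolic synthetases sit together in the multisynthetase complex, held by the scaffold proteins AIMP1, AIMP2 and AIMP3. Most mitochondrial enzymes come from nuclear genes of their own, while some genes, such as that for GlyRS in humans, make forms for both compartments.

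The arrays differed in overall brightness, with trimmed mean signals of 125.4 to 138.8 in the Spotted-dick arrays and 125.8 to 189.6 in the GFP arrays. Signals were therefore quantile normalized, and changes are differences of log2(signal + 16), Spotted-dick minus GFP, tested with limma over 11261 probe sets. The depletion was visible in every array: the normalised signal of pita was 25.8, 51.6 and 32.7 in the Spotted-dick arrays and 249.8, 293.8 and 310.0 in the GFP arrays (log2 change -2.54 ± 0.16, SE, limma adjusted p = 6.96e-08). Orc4, an origin recognition complex subunit, changed by -2.53. Its deposited Spotted-dick signals were only 2.7, 14.2 and 4.0, so the 16 added before the log limits the size of this change. Over the alternative processing settings the Orc4 change ran from -4.11 to -1.34. Of 8 hemocyte markers, srp, Hml, vkg, Col4a1 and eater lay above 17.4 in all 6 arrays, a signal that 95% of the 100 control probe sets for foreign sequences stay under. NimC1 and Sr-CI did so in none. The deposited signals of these 8 markers summed to 10398.5 to 11055.1 in the Spotted-dick arrays and 11004.8 to 14341.9 in the GFP arrays. Most of each sum came from vkg and Col4a1, and deposited signals carry the brightness of the arrays. After normalization vkg changed by -0.05 and Col4a1 by 0.01. Of 9 markers listed for other cell types only elav lay above 17.4 in every array. Their sums were 149.9 to 190.6 in the Spotted-dick arrays and 170.5 to 202.8 in the GFP arrays. PPO1 and lz on this list mark crystal cells, which are also hemocytes. The listed genes Mhc, Lsp1beta, vas and nos were not among these 9. Pxn and PPO1 rose (1.39 and 1.33, limma adjusted p = 0.000423 and 0.00274). Their deposited GFP signals were low: 30.2, 11.5 and 16.8 for Pxn, and 4.9, 4.4 and 3.3 for PPO1, all of the latter under 17.4. The sizes are therefore uncertain, at 0.73 to 2.00 for Pxn and 0.54 to 2.81 for PPO1 over the alternative processing settings that tested them. The ratio of 3′ to 5′ GAPDH control signal, a sign of RNA integrity, was 3.03 to 4.04 in the Spotted-dick arrays and 2.97 to 3.39 in the GFP arrays, and its part in the results was not tested.

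Transcripts of the synthetases stayed close to their control level when Spotted-dick was depleted. In limma none of the 32 probe sets passed at an adjusted p under 0.05, against 2.03% of all tested probe sets (0.604% higher and 1.43% lower). At an unadjusted p under 0.05 there were 2 of 32, LysRS and IleRS, both above 0, against 12.3% of all tested (6.08% higher and 6.18% lower). Both are among the 17 cytosolic probe sets other than the dimmest. In the range of mean level of those 17, 282 of 1465 tested probe sets had an unadjusted p under 0.05. With a background of 2.03%, a count of 0 among 32 is no result about the family by itself. The changes ran from -0.14 for CysRS-m to 0.29 for the dim TrpRS probe set, with a median of 0.08 and an SD over probe sets of 0.08. Over all tested probe sets, dim ones included, the median was 0.01 and the SD 0.25. Leaving the dim TrpRS probe set aside, the SD was 0.05 for the cytosolic members, against 0.15 for all tested probe sets in their range of mean level. It was 0.10 for the mitochondrial members, against 0.26 for all tested in theirs. Strongly changed probe sets weigh on the latter SD, with changes from -5.38 to 2.47. The quartiles differed less: 0.00 and 0.14 for the mitochondrial members, -0.09 and 0.12 for all tested in their range. For the brighter cytosolic members they were 0.06 and 0.12, against -0.07 and 0.08 in their range. These spreads were not tested against each other.

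**Figure D1:**
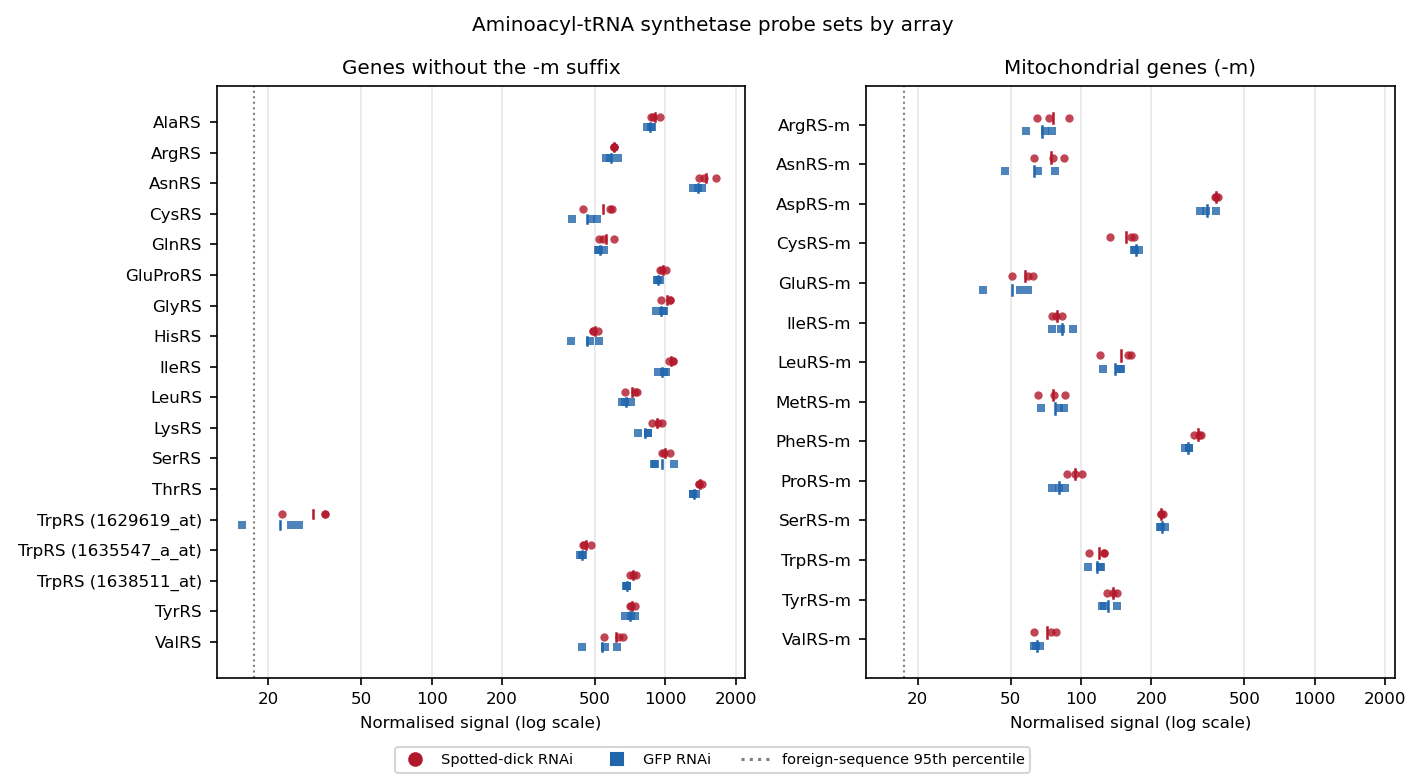
Normalised signal (log scale) of each synthetase probe set in the 3 Spotted-dick RNAi arrays (red circles) and the 3 GFP RNAi arrays (blue squares), with short lines at group means and a dotted line at 17.4, the foreign-sequence control limit taken from deposited signals. Points scatter more widely in some lines, such as ValRS, CysRS, AsnRS-m and GluRS-m. GFP RNAi replicate 3 of the dim TrpRS probe set, at 15.5, is the lowest point.

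The intervals bound how large a change could be. For 31 of 32 probe sets the 95% interval of the change lay within 1.5-fold in either direction, against 64.6% of all tested probe sets. The width of an interval depends on the level: 1431 of the 1465 tested probe sets in the level range of the 17 brighter cytosolic members, and 3599 of the 3929 in that of the 14 mitochondrial members, also lay within 1.5-fold. The family's share is therefore near that of other probe sets of its brightness. The exception was the dim TrpRS probe set, whose interval ran from 0.910-fold to 1.63-fold. Narrow intervals belonged to bright cytosolic members: ThrRS, the threonine enzyme, lay between 0.981-fold and 1.14-fold. GluProRS, a fused enzyme that charges both glutamate and proline tRNAs, lay between 0.961-fold and 1.14-fold. Among the mitochondrial members AsnRS-m had the widest interval, 0.908-fold to 1.45-fold. These intervals rest on quantile normalization, which sets the arrays' overall distributions equal. A change shared by all transcripts would not be visible.

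**Figure D2:**
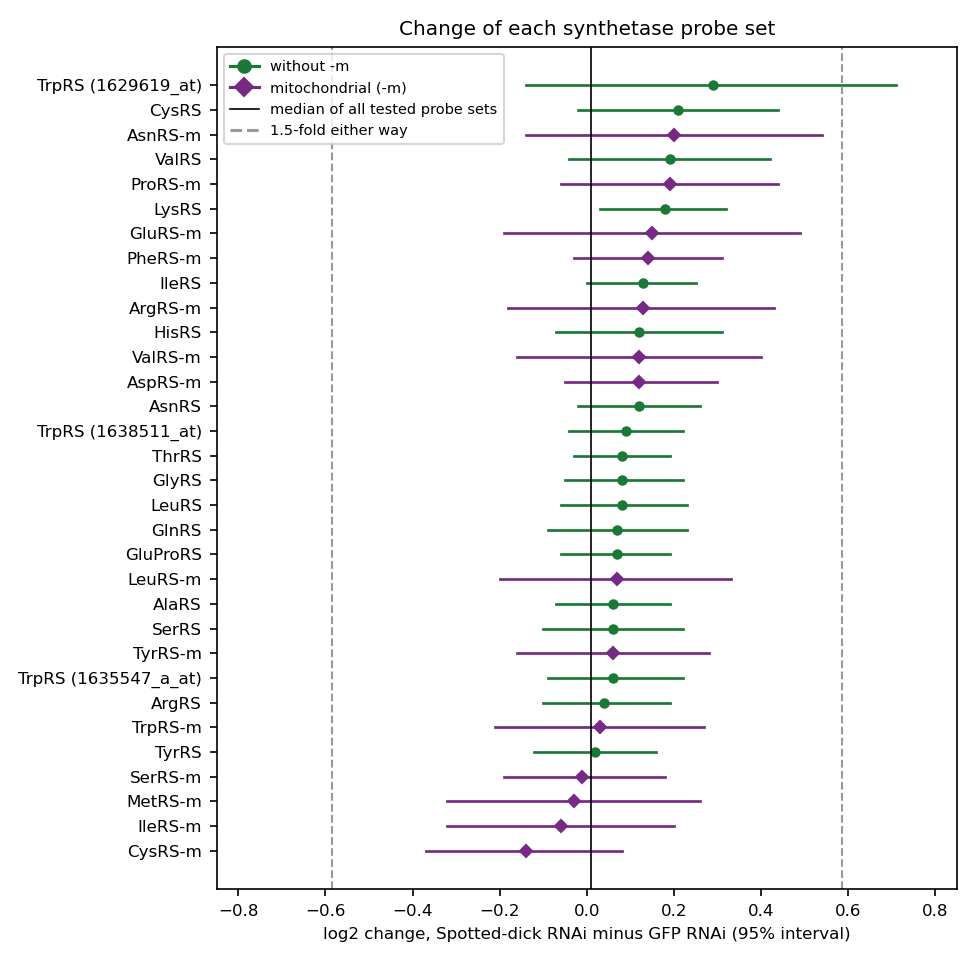
Change of each synthetase probe set (log2, Spotted-dick RNAi minus GFP RNAi) with its 95% interval from limma, genes without -m in green circles and mitochondrial genes in purple diamonds. The solid line is the median of all tested probe sets (0.01) and the dashed lines mark 1.5-fold either way, which only the dim TrpRS interval crosses.

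LysRS, which charges tRNA with lysine and belongs to the multisynthetase complex, had the smallest p-value of the family. Its normalised signals were 971.2, 875.8 and 926.4 in the Spotted-dick arrays and 760.1, 844.3 and 845.0 in the GFP arrays. All Spotted-dick values lay above all GFP values, by a change of 0.18 ± 0.07 (SE, n = 3 and 3, limma adjusted p = 0.270, unadjusted p = 0.0189). As deposited the order was not the same: 847.0, 866.1 and 820.1 in the Spotted-dick arrays against 1012.5, 944.7 and 746.1 in the GFP arrays, a change of -0.08. IleRS, the isoleucine enzyme of the same complex, had normalised signals of 1075, 1032 and 1074 in the Spotted-dick arrays and 925.6, 1001 and 983.4 in the GFP arrays. These groups too did not overlap, with a change of 0.13 ± 0.06 (limma adjusted p = 0.396). The IleRS, ThrRS and ValRS probe sets end in _s_at, a name Affymetrix gives to probe sets whose probes can match more than a single gene.

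Further cytosolic enzymes had groups that did not overlap at small changes. ThrRS had 1396, 1394 and 1436 in the Spotted-dick arrays and 1311, 1317 and 1357 in the GFP arrays (0.08 ± 0.05, limma adjusted p = 0.564). GluProRS had 1010, 972.0 and 949.8 in the Spotted-dick arrays and 924.0, 927.3 and 947.4 in the GFP arrays (0.07 ± 0.06, adjusted p = 0.718). In both, the lowest Spotted-dick value and the highest GFP value differed by little. Over the family 8 of 32 probe sets had Spotted-dick values all above GFP values, against 9.51% of all tested, and 0 of 32 had them all below, against 8.27%. None of these 8 passed the test. TrpRS gave 2 of them, and with 1 probe set a gene the count was 7 of 30. The share depends on the level. Leaving the dim TrpRS probe set aside, it was 6 of 17 cytosolic members, against 197 of 1465 tested probe sets in their range of mean level. For the mitochondrial members it was 2 of 14, against 441 of 3929 in theirs. These shares were not tested.

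TrpRS, the tryptophan enzyme, was measured by 3 probe sets. The brightest had 750.8, 723.4 and 707.9 in the Spotted-dick arrays and 688.4, 675.6 and 683.0 in the GFP arrays, a change of 0.09 ± 0.06 without overlap. Another had 482.7, 447.0 and 444.1 in the Spotted-dick arrays and 442.6, 438.4 and 432.4 in the GFP arrays (0.06 ± 0.07), also without overlap. The dim one had deposited signals of 33.0, 30.8 and 20.6 in the Spotted-dick arrays and 30.3, 30.0 and 14.8 in the GFP arrays, the last under 17.4 (0.29 ± 0.20). All 3 changes were above 0, and none passed (limma adjusted p = 0.617, 0.793 and 0.614).

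CysRS and ValRS had the largest changes among the brighter cytosolic members, and both varied within groups. CysRS, the cysteine enzyme, had 582.1, 589.6 and 443.0 in the Spotted-dick arrays and 507.6, 398.9 and 478.8 in the GFP arrays (0.21 ± 0.11, limma adjusted p = 0.474). ValRS, the valine enzyme, had 661.6, 544.6 and 630.9 in the Spotted-dick arrays and 440.1, 554.0 and 619.9 in the GFP arrays (0.19 ± 0.11, limma adjusted p = 0.514). The groups overlapped for both. Arrays were washed on 2 fluidics stations, each holding both groups. Within station 1 the changes of CysRS and ValRS were 0.36 and 0.41, and within station 2 they were 0.09 and -0.08. Each of these rests on 1 array of 1 group. Those of LysRS were 0.27 and 0.09.

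The asparagine enzyme AsnRS had 1464, 1391 and 1643 in the Spotted-dick arrays and 1385, 1431 and 1307 in the GFP arrays (0.12 ± 0.07, limma adjusted p = 0.486). HisRS, which charges histidine tRNA, had 491.9, 491.5 and 516.7 in the Spotted-dick arrays and 474.5, 395.1 and 517.5 in the GFP arrays (0.12 ± 0.09). In both the groups overlapped, and the low HisRS value of GFP replicate 2 set most of that difference. GlyRS, LeuRS, GlnRS, AlaRS, SerRS, ArgRS and TyrRS, named for the amino acids they attach, had changes from 0.08 for GlyRS and LeuRS to 0.02 for TyrRS, and the groups overlapped in all 7. TyrRS had 715.7, 704.8 and 737.9 in the Spotted-dick arrays and 709.9, 743.8 and 670.7 in the GFP arrays. ArgRS had 602.5, 604.8 and 605.4 in the Spotted-dick arrays and 625.4, 555.7 and 578.0 in the GFP arrays. The 3 Spotted-dick values of ArgRS were closer to each other than its GFP values.

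The 18 probe sets without -m all had changes above 0, with a median of 0.08. Their medians by fluidics station were 0.13 in station 1 and 0.07 in station 2. Leaving the dim TrpRS probe set aside, the other 17 spanned a range of mean level that held 1465 tested probe sets, whose median was 0.01. Over the whole family 28 of 32 changes were above 0, against 51.6% of all tested probe sets. These are descriptions without a test, since the members share arrays and were picked with earlier results of these data known. The sign depends on the scaling: as deposited 31 of 32 changes were below 0, as were 82.9% of all tested probe sets, with medians of -0.18 for the family and -0.20 for all. As deposited, limma called none of the 32 at an adjusted p under 0.05 (smallest 0.506), against 1.24% of all tested (0.0977% higher and 1.15% lower). After the median over everything tested was subtracted, the family median was 0.08 with quantile normalization and 0.03 as deposited. Against probe sets of like level the as-deposited medians were -0.18 for the 17 brighter cytosolic members and -0.25 for all tested in their range, and -0.16 for the mitochondrial members and -0.24 for all tested in theirs.

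**Figure D3:**
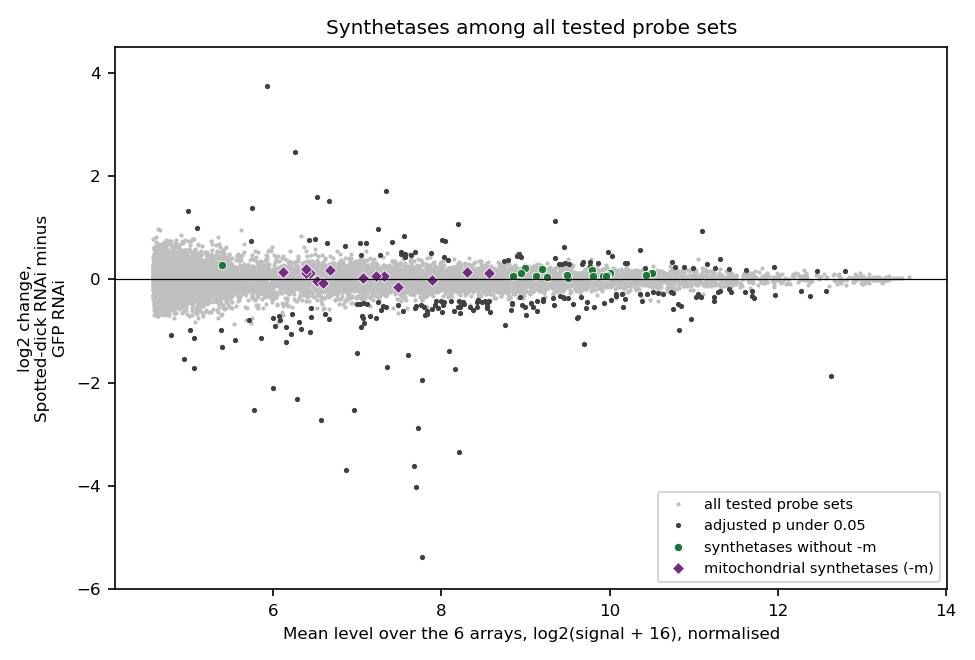
Change (log2, Spotted-dick RNAi minus GFP RNAi) against mean normalised level of all 11261 tested probe sets (grey), those with a limma adjusted p under 0.05 (black) and the synthetases (green circles without -m, purple diamonds mitochondrial). The synthetases form a narrow band between -0.14 and 0.29 inside the spread of all probe sets.

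The mitochondrial synthetases charge tRNAs for the few proteins made inside the organelle, all of them subunits of the oxidative phosphorylation complexes. Their 14 probe sets lay above 17.4 in all 6 arrays, with deposited signals from 42.2 to 431.5. Signals of different probe sets do not rank transcript abundance. Changes ran from -0.14 to 0.20 with a median of 0.09, and 10 of 14 were above 0, at medians of 0.00 in station 1 and 0.03 in station 2. All tested probe sets in that range of mean level had a median of 0.02. Both station medians of the 14 lay below 0.09, and the groups were unevenly split between stations. By array, their median deviation from the mean over arrays was -0.01 (Spotted-dick replicate 1), -0.04 and -0.05 (GFP replicates 1 and 2) in station 1. In station 2 it was 0.08 and 0.08 (Spotted-dick replicates 2 and 3) and 0.04 (GFP replicate 3). The part of the station in the median of 0.09 and the 10 of 14 was not tested. The spread over the 14 changes (SD 0.10) was about their median standard error (0.12).

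PheRS-m, the mitochondrial phenylalanine enzyme, had the smallest p-value of this group. Its normalised signals were 305.0, 326.5 and 319.0 in the Spotted-dick arrays and 289.1, 290.0 and 278.5 in the GFP arrays, without overlap (0.14 ± 0.08, limma adjusted p = 0.518). ProRS-m, its proline counterpart, had 86.6, 94.3 and 100.6 in the Spotted-dick arrays and 85.3, 75.1 and 80.6 in the GFP arrays (0.19 ± 0.12, adjusted p = 0.567). Here too every Spotted-dick value was above every GFP value, the nearest pair by little. AsnRS-m had the largest change above 0 of the group and scattered most: 62.7, 84.7 and 75.5 in the Spotted-dick arrays against 77.0, 65.2 and 47.3 in the GFP arrays (0.20 ± 0.16). Its change was -0.14 within station 1 and 0.60 within station 2, and the station 2 value rests on the low value of GFP replicate 3.

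CysRS-m had the lowest change of the family. It had 163.1, 169.1 and 133.5 in the Spotted-dick arrays and 170.6, 177.7 and 168.3 in the GFP arrays (-0.14 ± 0.11, limma adjusted p = 0.652). The groups overlapped by a small margin, and Spotted-dick replicate 3 was the low array. IleRS-m (-0.06), MetRS-m (-0.03) and SerRS-m (-0.01), the isoleucine, methionine and serine enzymes, were the other members below 0. As deposited IleRS-m was the only member with all Spotted-dick signals (66.9, 72.9 and 72.8) below all GFP signals (101.4, 93.7 and 80.2), against 12.6% of all tested probe sets. After normalization its values were 75.1, 77.9 and 82.9 in the Spotted-dick arrays and 75, 81.9 and 92.0 in the GFP arrays, which overlapped.

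The remaining mitochondrial members were close to 0 or imprecise. AspRS-m, the aspartate enzyme, had 377.1, 375.0 and 385.3 in the Spotted-dick arrays and 321.6, 343.2 and 377.3 in the GFP arrays (0.12 ± 0.08). SerRS-m had 218.8, 223.5 and 220.1 in the Spotted-dick arrays and 219.3, 229.2 and 216.7 in the GFP arrays, so that all 6 values lay within a narrow range. GluRS-m (0.15 ± 0.16), ArgRS-m (0.13 ± 0.14), ValRS-m (0.12 ± 0.13), LeuRS-m (0.07 ± 0.12), TyrRS-m (0.06 ± 0.10) and TrpRS-m (0.03 ± 0.11) had changes about as large as their standard errors or smaller. GluRS-m and TyrRS lie next to each other among protein-coding genes in the RefSeq order. Of the 60 nearest protein-coding neighbours of the family, 46 were tested and none passed in limma (5 at an unadjusted p under 0.05), with changes from -0.54 to 0.40. Over all tested probe sets 2.03% passed and 12.3% had an unadjusted p under 0.05, so these counts are no result about the neighbours.

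For 9 amino acids both a cytosolic and a mitochondrial enzyme were measured, and the cytosolic change was the higher in 6. The widest gap was that of cysteine, 0.21 for CysRS and -0.14 for CysRS-m, and the narrowest that of leucine, 0.08 for LeuRS and 0.07 for LeuRS-m. Isoleucine followed cysteine with 0.13 for IleRS and -0.06 for IleRS-m. Differences within pairs were not tested. By enzyme class the medians were 0.07 over 20 class I probe sets and 0.12 over 13 class II probe sets, GluProRS counting in both. The 6 measured enzymes of the multisynthetase complex (ArgRS, GlnRS, GluProRS, IleRS, LeuRS and LysRS) had a median of 0.08, and none passed in any of these groups.

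Partners of the synthetases showed changes of similar size. The scaffold genes AIMP2 (0.10 ± 0.06), AIMP1 (0.08 ± 0.07) and AIMP3 (0.06 ± 0.10) did not pass (limma adjusted p = 0.569, 0.700 and 0.866). AIMP2 had 947.0, 1045 and 1047 in the Spotted-dick arrays and 957.6, 903.0 and 970.0 in the GFP arrays, with overlap. The subunits of the cytosolic phenylalanine enzyme, whose Greek-letter prefixes keep them outside the name rule, had changes of 0.09 for alpha-PheRS and 0.09 for beta-PheRS. The seryl-synthetase-like mitochondrial protein gene SLIMP had -0.04. None of these 3 passed.

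The tested genes that use or prepare charged tRNAs were also mostly near 0. None of 4 tested cytosolic elongation factor genes passed in limma (1 at an unadjusted p under 0.05, eEF1gamma, -0.12 ± 0.05, adjusted p = 0.294). The listed genes eEF1alpha1, eEF1beta and eEF2 were not among these 4. None of 10 tested mitochondrial translation factor and amidotransferase genes passed (1 at an unadjusted p under 0.05). That 1 was mEFTu1, which brings charged tRNA to the mitochondrial ribosome, with 1008, 1016 and 1034 in the Spotted-dick arrays and 865.7, 863.2 and 925.6 in the GFP arrays (0.20 ± 0.06, limma adjusted p = 0.118). Its groups did not overlap. Among 15 tested tRNA processing and modification genes none passed (0 at an unadjusted p under 0.05). The smallest p-values there belonged to the tRNA thiolation gene Ctu1 (0.29 ± 0.14), the tRNA methyltransferase gene Nsun2 (0.28 ± 0.13), La (0.15 ± 0.07) and the Elongator gene Elp2 (-0.23 ± 0.11), with limma adjusted p-values of 0.422, 0.426, 0.427 and 0.428. The median changes of the 3 lists were -0.02, 0.06 and 0.09. Over all tested probe sets 2.03% passed and 12.3% had an unadjusted p under 0.05, so counts in lists this short are no result by themselves.

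Among 11 tested genes of the amino acid response and amino acid supply, 1 fell and none rose. The listed genes Thor, Phgdh, Psat, slif, Xrp1 and eIF2alpha were not among these 11. The gene that fell was Shmt, serine hydroxymethyltransferase, which converts serine to glycine and feeds folate-bound one-carbon units. Its normalised signals were 1337, 1508 and 1341 in the Spotted-dick arrays and 2109, 2033 and 2134 in the GFP arrays, well apart. Shmt fell by 0.58 ± 0.06 on the log2 scale (SE, limma adjusted p = 2.05e-05), at -0.62 within station 1 and -0.58 within station 2. Its call ended with limma without the intensity trend (adjusted p = 0.0643), the only one of 17 alternatives to end it. Nmdmc, another enzyme of folate one-carbon metabolism, had 580.2, 690.3 and 633.5 in the Spotted-dick arrays and 548.6, 552.9 and 537.7 in the GFP arrays (0.21 ± 0.07, limma adjusted p = 0.229), without overlap.

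The transcription factor crc is the fly counterpart of ATF4, which in mammals activates many cytosolic synthetase genes when amino acids run short. Its normalised signals were 3664, 3242 and 3467 in the Spotted-dick arrays and 3322, 3283 and 3467 in the GFP arrays (0.04 ± 0.05, limma adjusted p = 0.803). The kinase genes Gcn2, which senses uncharged tRNA, and PEK had changes of 0.05 and 0.02. Asparagine synthetase, AsnS, an ATF4 target in mammals, had -0.10, the pseudokinase gene trbl -0.16 and the amino acid transporter gene mnd 0.10, none of which passed. The list's median was 0.02.

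**Figure D4:**
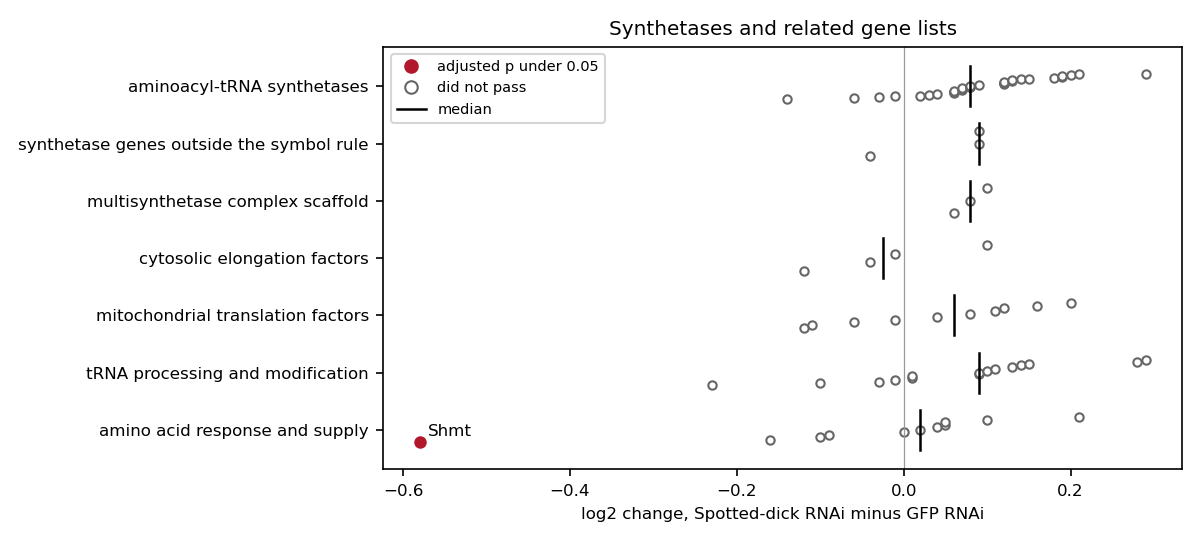
Change (log2, Spotted-dick RNAi minus GFP RNAi) of each synthetase probe set and of each tested gene of 6 related lists, with black lines at the medians. Filled red marks an adjusted p under 0.05 in limma over all tested probe sets, which Shmt alone reached, at -0.58.

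None of the 32 probe sets passed in any of the 17 alternatives, which included values as deposited, each array left out and the fluidics station as a block. The smallest adjusted p of any member in any of them was 0.168, for LysRS without Spotted-dick replicate 2. In these alternatives 0.311% to 2.10% of all tested probe sets were called lower and 0.0977% to 0.892% higher, so a count of 0 among 32 is no sign of stability. The family median moved with the scaling, together with the median of all tested probe sets.

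**Figure D5:**
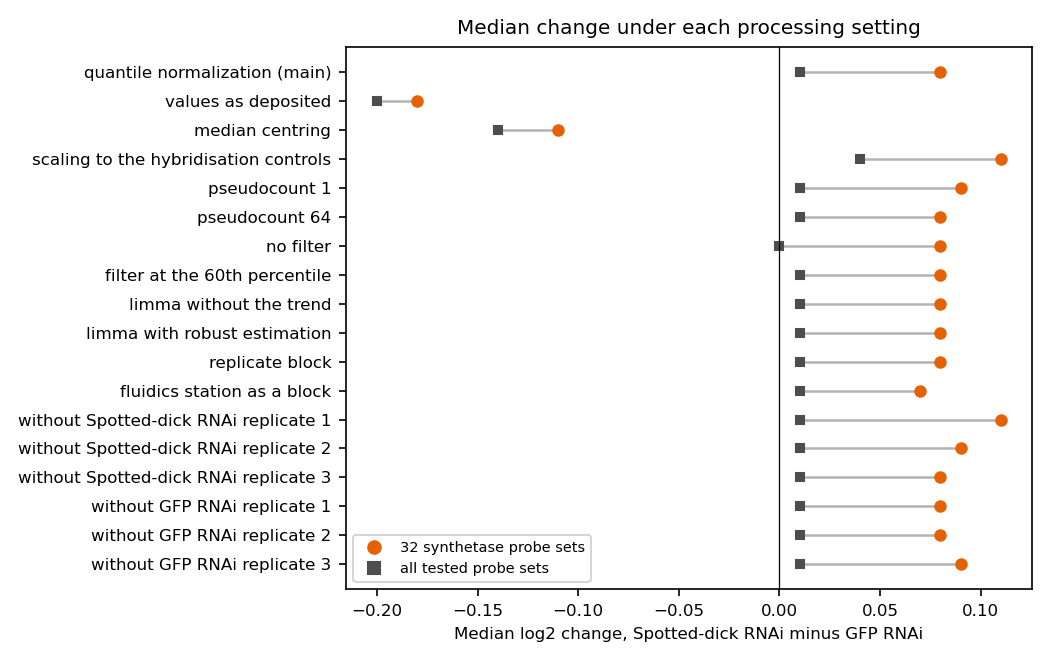
Median log2 change (Spotted-dick RNAi minus GFP RNAi) of the 32 synthetase probe sets (orange circles) and of all tested probe sets (grey squares) under the main setting and 17 alternatives. Both medians lie below 0 as deposited (-0.18 and -0.20) and with median centring (-0.11 and -0.14), and the synthetase median lies above that of all probe sets in each line.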

How the data were processed

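The deposited values are linear intensity values, 1 for each probe set on each array. How the authors summarised probes, corrected background or scaled arrays is not stated per the labels or headers, and the array type (Drosophila_2) is known per the file headers. Controls (125 probe sets) were set apart, leaving 18769. Values were log2(signal + 16), quantile normalized because trimmed means (2% from each end) differed 1.51 times between arrays. A normalised signal is the value turned back to the linear scale. Probe sets with a mean under the 40th percentile were dropped, leaving 11261 with all 32 members. Groups were compared with limma 3.58.1 (R 4.3.3, intensity trend), with Benjamini-Hochberg adjustment over all tested probe sets and calls at 0.05. The fit was tested on simulated data with planted changes larger than any in the family and no station effect. That test does not bear on changes as small as those of the synthetases. Figures used matplotlib 3.10.9 (Python 3.11.15). The number of arrays limits the precision.

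A gene with several probe sets in a list was represented by the brightest. Named were all members, pita, Orc4, and of each list the genes that passed plus up to 4 with the smallest p. The genes crc, Gcn2 and PEK, and the markers srp, Col4a1 and Sr-CI, fall outside that rule and were named after their values were seen. Members and lists were chosen with earlier results of these data known. Names come from the platform annotation and the RefSeq table of Release 6, which gene IDs matched for 13544 of 13647 single-gene probe sets. Replicate numbers come from the titles and did not pair samples. Stations come from the file headers: station 1 held Spotted-dick replicate 1 and GFP replicates 1 and 2, station 2 the other 3 arrays. Alternatives were 3 other scalings, pseudocounts of 1 and 64, no filter or the 60th percentile, limma without trend or robust, replicate or station as a block, and each array left out.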

Additional observations from a re-analysis of the deposited data

How the results depend on the processing

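The count of synthetase probe sets called was 0 in all 17 alternatives, and 0 genes were called when the probe sets of a gene were averaged. The number called over all tested probe sets, 229 (68 higher, 161 lower), was 140 as deposited (11 higher, 129 lower), 126 without the filter, 53 without the intensity trend, and 115 (without GFP replicate 2) to 249 (without Spotted-dick replicate 2) with 1 array left out. It was 142 without Spotted-dick replicate 3 and 145 without GFP replicate 3. With median centring 16 were higher and 151 lower. The family median relative to all tested probe sets, 0.08, was 0.03 as deposited and 0.03 with median centring, and 0.06 to 0.10 in every other alternative. Both are set against probe sets of all levels. As deposited, the brighter cytosolic members had a median of -0.18, against -0.25 for all tested in their level range. The cause of the changed counts was not tested. Single members changed sign in 27 of 32 cases as deposited, in 24 with median centring and in at most 3 in any other alternative, none of them called in either setting. The pairing by replicate number was not borne out (correlations of -0.06, -0.03 and 0.05 between same-numbered arrays). With the replicate block 199 probe sets and 0 synthetases were called and the relative median was 0.08. Dim probe sets limit what can be seen: standard errors were 0.20 for the dim TrpRS probe set and 0.05 for ThrRS.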
